A study of Sus scrofa with 21 samples.

Results

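The SLC25 family of mitochondrial carriers was followed in the hearts of 21 pigs in their first 28 days of life, with and without a myocardial infarction (MI). Its members were taken as the genes that the deposited count table names SLC25A with a number and that reached at least 1 CPM (counts scaled to the size of the library) in at least 2 libraries. That rule kept 32 of the 39 such genes, of 25880 genes in the table, and all 32 passed the filter on low counts used for testing. The 7 that were not kept (SLC25A2, SLC25A31, SLC25A35, SLC25A44, SLC25A45, SLC25A48 and SLC25A53) reached 1 CPM in 0 libraries, the highest single value being 0.407 CPM for SLC25A45. Carriers that the table lists without such a name are outside the rule.

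Total RNA was sequenced from 1 sample per pig. MI pigs had the left descending coronary artery tied permanently on postnatal day 1, and tissue was taken from the border zone of the infarct on day 7 (n = 3), day 14 (n = 3) or day 28 (n = 2). Control pigs gave tissue from the matching region on day 1 (n = 2), day 3 (n = 2), day 7 (n = 3), day 14 (n = 3) and day 28 (n = 3). The titles call the controls naive, whereas the protocol describes age-matched pigs operated on without the ligation, so it is not settled whether they had surgery, and they are called naive here. No genetic modification or drug is given for any group, and sex, litter and batch are not given. The design asks how the infarct changed the myocardium at each age and how the uninjured heart changed with age. The tissue is a border zone in bulk, so fewer cells of a type and less RNA per cell cannot be told apart in any value below.

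SLC25 proteins are carriers that sit almost all in the inner mitochondrial membrane and swap or cotransport metabolites between the cytosol and the matrix. Without a carrier, of this or another family, the inner membrane is closed to nucleotides, phosphate, amino acids, carboxylates and cofactors. SLC25 carriers thus help to link glycolysis, fatty acid oxidation, the urea cycle and haem and iron handling to the matrix. Cardiac muscle depends on them above all for the exchange of ADP for ATP, for phosphate, for the malate-aspartate shuttle that brings in reducing equivalents, and for acylcarnitine import. The nuclear-encoded carriers are imported after synthesis through the TOM complex, small TIM chaperones and the TIM22 complex.

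Total counts per library ran from 37002909 to 95559841, and on day 7 they did not overlap between MI (75071994 to 92831231) and naive libraries (37002909 to 48321350). The 32 members together took 0.503% to 0.976% of the counts of a library. The labels name no sets of libraries, but a cut on 1 gene alone (ENSSSCG00000035520) set apart the libraries of 4 pigs, with under 100 CPM. They were MI replicate 3 of day 7 and MI replicate 2 of day 28, and among naive hearts replicate 3 of day 14 and replicate 2 of day 28. Cardiomyocyte markers were present in every library, except for TNNI3, which was listed at 0 in all libraries. On day 28 the cardiomyocyte markers were lower as a sum in both MI hearts. PLN alone had 723 and 317 CPM in MI hearts, against 575, 615 and 586 CPM in naive hearts. The macrophage, fibroblast, smooth muscle, endothelial, adipocyte, erythroid and lymphocyte sums were each above the naive range in 1 of the MI hearts. The summed level of the cardiomyocyte markers was 44399.5 and 37023 CPM in MI hearts, against 72667, 83792 and 81088 CPM in naive hearts, and edgeR found that 3 of the 8 tested markers fell (MYL2, ACTC1 and CSRP3). The macrophage sum was 271 and 2884 CPM in MI hearts, against 294, 312 and 59.8 CPM in naive hearts, with 6 of 8 markers called higher. The fibroblast sum was 1660 and 19764 CPM in MI hearts, against 6270, 3763 and 3608 CPM in naive hearts, with 1 of 7 called higher. For smooth muscle it was 1029 and 271 CPM in MI hearts, against 206, 215 and 453 CPM in naive hearts, with 4 of 5 called higher. For adipocytes it was 668 and 143 CPM in MI hearts, against 244, 165 and 133 CPM in naive hearts, with 3 of 5 called higher. The lymphocyte sum was 8.45 and 125 CPM in MI hearts, against 10.4, 9.15 and 4.84 CPM in naive hearts, with 2 of 7 called higher. The endothelial sum was 1154 and 832 CPM in MI hearts, against 893, 930 and 673 CPM in naive hearts. For erythroid markers it was 368 and 94.0 CPM in MI hearts, against 326, 136 and 163 CPM in naive hearts. Of 5 endothelial and 4 erythroid markers none was called by edgeR or DESeq2. At an unadjusted p under 0.05 by edgeR there were 1 and 0, against 27% of all genes. No macrophage, fibroblast or smooth muscle marker was at 0 in any library, and up to 3 adipocyte markers and 1 lymphocyte marker were. The mitochondrially encoded genes took 34.6% and 19.2% of the counts in MI hearts, against 15.9%, 30.9% and 15.8% in naive hearts. The part of this in the day 28 values below was not tested.

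The infarct left most carrier transcripts without a called change, and the exceptions were on day 28 and in the mean over days. Tests are edgeR's quasi-likelihood F-test on all 21 libraries, log2 fold changes are MI over naive, and a gene is called where its Benjamini-Hochberg adjusted p over the 15359 tested genes is under 0.05. On day 28, 6 of the 32 members were called (18.8%), where 6.86% of all tested genes were called. DESeq2 called 8, where it called 13.8% of all genes. At an unadjusted p under 0.05 by edgeR were 13 members and 27% of all genes. Fitted on the compared groups alone, with 5 libraries, edgeR called 0 members on that day, and without 1 of those libraries in the full fit 0 to 4 members and 0.111% to 7.31% of all genes. SLC25A22 and SLC25A29 rose, against 4.47% of all genes called higher, and SLC25A13, SLC25A15, SLC25A23 and SLC25A46 fell, against 2.38% of all genes called lower. In the mean of the 3 same-day effects, 4 members were called (12.5%), against 4.43% of all genes, and 13 members had an unadjusted p under 0.05, against 23.1% of all genes. There SLC25A22 and SLC25A29 rose, where 2.36% of all genes were called higher, and SLC25A13 and SLC25A21 fell, where 2.07% were called lower. DESeq2 called 6 members in this mean, and 9.93% of all genes. On day 7 edgeR called 0 members and 0% of all genes, with 6 members and 12.4% of all genes at an unadjusted p under 0.05, and DESeq2 called 1 member (SLC25A21, lower) and 1.7% of all genes. On day 14 edgeR called 0 members and 0% of all genes, with 0 members and 5.35% of all genes at an unadjusted p under 0.05, and DESeq2 called 0 members and 0.0863% of all genes.

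The median log2 fold change of the 32 members was -0.09 on day 7, -0.11 on day 14 and -0.19 on day 28, where the medians over all tested genes were 0.03, -0.01 and 0.00. The small medians of days 14 and 28 rested on single libraries. On day 28 the members' median was -0.39 without MI replicate 1 and 0.01 without MI replicate 2. On day 14 it was -0.02 without MI replicate 2, -0.03 without naive replicate 2 and -0.01 without naive replicate 1. The day 7 median stayed between -0.0971 and -0.0745 when any 1 library of that day was left out. The members spread in both directions on each day, with 14 positive and 18 negative on day 7, 13 and 19 on day 14, and 14 and 18 on day 28. Between the extremes, the values ran from -1.11 (SLC25A21) to 1.25 (SLC25A29) on day 7, from -0.47 (SLC25A21) to 0.68 (SLC25A47) on day 14, and from -2.02 (SLC25A15) to 1.89 (SLC25A29) on day 28. The groups did not overlap for 8 members on day 7, where 24.3% of all genes did not overlap, and for 1 member on day 14 (SLC25A47, higher), where 8.22% did not (3.73% higher and 4.49% lower). On day 28 they did not overlap for 12 of the 32 members, 4 higher and 8 lower, which is about the share of all genes (37.8%, of which 16.4% higher and 21.4% lower). The day 28 group of MI hearts held the lowest of the 8 group means for 14 of the 32 members and the highest for 8. How often it did so over all genes was not computed, so whether this is particular to the carriers is not known.

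**Figure D1:**
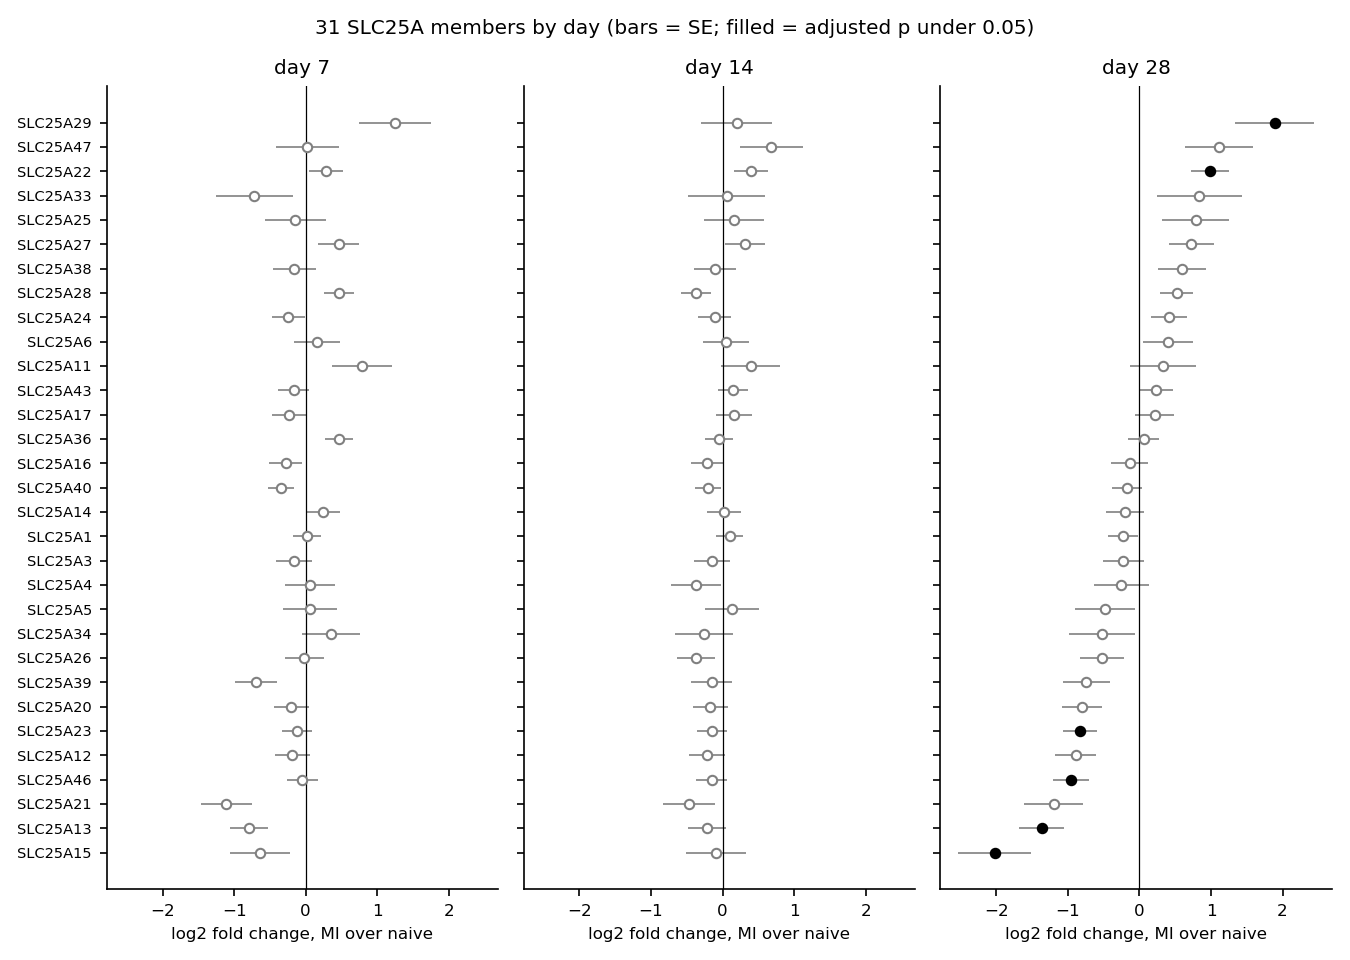
Log2 fold change (MI over naive, x axis) of 31 of the 32 SLC25A members on days 7, 14 and 28, sorted by the day 28 value, with bars for the standard error and filled points for an adjusted p under 0.05. The spread is widest on day 28, from -2.02 to 1.89, and 6 points are filled there against 0 on days 7 and 14.

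The 3 carriers that dominated the family did not pass the test in any comparison. Per kilobase of exon in the RefSeq models of the Sscrofa11.1 genome, the median level over the 21 libraries was 2059 CPM per kb for SLC25A4, 1132 for SLC25A6 and 976 for SLC25A3, and the next was SLC25A12 at 66.5. SLC25A20 (38.3), SLC25A34 (29.8) and SLC25A5 (24.6) followed, and SLC25A21 was lowest at 0.15. The 3 most abundant carriers made up 89.7% (MI day 14 replicate 2) to 94.7% (MI day 28 replicate 1) of the summed level per kb of the members. These lengths are RefSeq's and not those of the authors' gene models, so the order holds only as far as the models correspond.

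SLC25A4 (ENSSSCG00000015790) is the ADP/ATP carrier of heart and skeletal muscle, which exports matrix ATP against cytosolic ADP. It had 2387, 2962 and 4232 CPM in MI hearts on day 7, against 3038, 2649 and 3500 CPM in naive hearts. On day 14 it had 3299, 1820 and 2869 CPM in MI hearts, against 3232, 3720 and 3383 CPM in naive hearts. On day 28 it had 4283 and 1840 CPM in MI hearts, against 3489, 3473 and 3975 CPM in naive hearts. The groups overlapped on days 7 and 14, and on day 28 the MI hearts lay on either side of all 3 naive hearts. The fold change on day 28 was -0.25 on the log2 scale (SE 0.39, adjusted p = 0.706 by edgeR).

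SLC25A6 (ENSSSCG00000033673), a second ADP/ATP carrier that is found in most tissues in humans, had 1868, 1795 and 2889 CPM in MI hearts on day 7, against 2148, 2009 and 1710 CPM in naive hearts. It had 1537, 1023 and 1372 CPM in MI hearts on day 14, against 1473, 1266 and 1053 CPM in naive hearts. It had 2258 and 1425 CPM in MI hearts on day 28, against 1407, 1124 and 1664 CPM in naive hearts. The groups overlapped on each day, and the day 28 fold change was 0.40 on the log2 scale (SE 0.35, adjusted p = 0.491 by edgeR). SLC25A5 (ENSSSCG00000012623), the ADP/ATP carrier of growing cells, was a minor form here. It had 42.3, 44.6 and 39.7 CPM in MI hearts on day 7, against 31.0, 44.9 and 45.3 CPM in naive hearts, and 29.1, 21.4 and 36.2 CPM in MI hearts on day 14, against 32.2, 29.2 and 17.7 CPM in naive hearts. The day 28 levels were 26.0 and 27.0 CPM in MI hearts, against 32.0, 21.4 and 57.5 CPM in naive hearts, so the groups overlapped on each day. Because the copies of this gene group are closely alike, reads shared between them could be split or dropped in counting.

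SLC25A3 (ENSSSCG00000000886) carries phosphate into the matrix for ATP synthesis, and copper as well. It had 1327, 1552 and 1386 CPM in MI hearts on day 7, against 1452, 1588 and 1733 CPM in naive hearts. On day 14 it had 1348, 782 and 1248 CPM in MI hearts, against 1097, 1422 and 1226 CPM in naive hearts. At 28 days it had 1551 and 732 CPM in MI hearts, against 1359, 1359 and 1290 CPM in naive hearts. As with SLC25A4, the MI libraries of day 28 bracketed the naive ones, and the fold change was -0.23 (log2, SE 0.28, adjusted p = 0.636 by edgeR).

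The lowest members' sums were in 3 libraries that also had the 3 highest fibroblast marker sums. The summed level of the 32 members was 4402 CPM in MI day 14 replicate 2, 4732 CPM in MI day 28 replicate 2 and 5096 CPM in naive day 1 replicate 2, and the fibroblast sums there were 16538, 19764 and 12680 CPM. In the other libraries the fibroblast sum was at most 8901 CPM. The part of this in the levels of SLC25A4 and SLC25A3 was not tested.

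**Figure D2:**
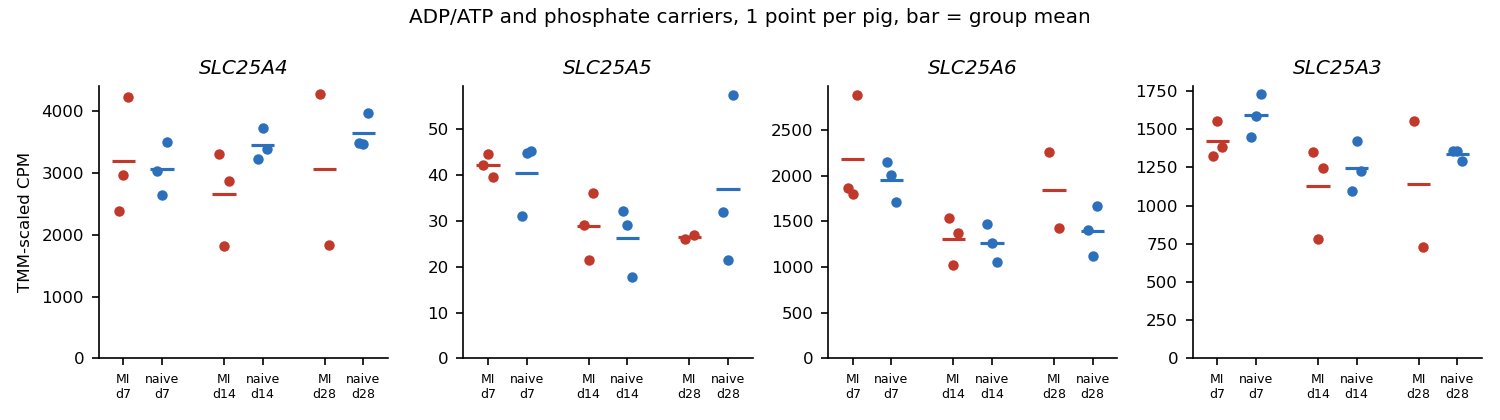
TMM-scaled CPM (y axis) of the ADP/ATP carriers SLC25A4, SLC25A5 and SLC25A6 and the phosphate carrier SLC25A3 in MI (red) and naive (blue) hearts by day, 1 point per pig, with a bar at the group mean. On day 28 the MI points of SLC25A4 (4283 and 1840 CPM) and SLC25A3 (1551 and 732 CPM) lie above and below all 3 naive points.

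Within a library, the ratio of SLC25A4 to SLC25A6 does not depend on the scaling of that library. On the log2 scale it was 0.35, 0.72 and 0.55 in MI hearts on day 7, against 0.50, 0.40 and 1.03 in naive hearts, and these groups overlapped. It was 1.10, 0.83 and 1.06 in MI hearts on day 14, against 1.13, 1.55 and 1.68 in naive hearts. It was 0.92 and 0.37 in MI hearts on day 28, against 1.31, 1.63 and 1.26 in naive hearts. On days 14 and 28 every MI heart was below every naive heart, which is a description of 6 libraries on day 14 and 5 on day 28 with no test, on a ratio chosen after the values were seen. In naive hearts the ratio was 0.95 and 1.24 on day 1 and 1.49 and 1.01 on day 3.

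Within the malate-aspartate shuttle, 1 carrier fell, and its call in the mean over days held in every fit run. SLC25A13 (citrin; ENSSSCG00000015336) and SLC25A12 (aralar; ENSSSCG00000015949) are the calcium-regulated carriers that export aspartate in exchange for glutamate. SLC25A13 lies on chromosome 9 at 75781421 to 75980606 on the minus strand, in RefSeq's annotation of Sscrofa11.1. It had 15.9, 16.4 and 12 CPM in MI hearts on day 7, against 28.9, 24.8 and 23.4 CPM in naive hearts. It had 25, 15.8 and 12.5 CPM in MI hearts on day 14, against 15.4, 25.6 and 20.8 CPM in naive hearts. It had 8.70 and 9.33 CPM in MI hearts on day 28, against 21.3, 17.7 and 30.8 CPM in naive hearts. All MI hearts were below all naive hearts on days 7 and 28, and the groups overlapped on day 14. SLC25A13 fell on day 28 by 1.37 on the log2 scale (SE 0.31, adjusted p = 0.0255 by edgeR), and in the mean over days by 0.79 (SE 0.16, adjusted p = 0.0184). On day 7 the fold change was -0.80 (SE 0.27, adjusted p = 0.251), and on day 14 it was only -0.2 and not called. The mean over days stayed called by edgeR without any 1 of the 17 libraries that enter it, with log2 fold changes of -0.90 to -0.71 and adjusted p of 0.00514 to 0.0457. The day 28 call was kept without naive replicate 1 or 2 and was lost without MI replicate 1, MI replicate 2 or naive replicate 3, with adjusted p of 0.0454 to 0.095 over the 5.

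SLC25A12 was the more abundant of the pair, and it is named after its values were seen. It had 217, 242 and 181 CPM in MI hearts on day 7, against 245, 250 and 233 CPM in naive hearts, and 212, 130 and 210 CPM in MI hearts on day 14, against 134, 266 and 242 CPM in naive hearts. On day 28 it had 150 and 106 CPM in MI hearts, against 260, 218 and 231 CPM in naive hearts, and the groups did not overlap. Its fold change on that day was -0.89 (log2, SE 0.28) and was not called by edgeR (adjusted p = 0.0636), while DESeq2 called it. The log2 ratio of SLC25A12 to SLC25A13 within a library was 3.77, 3.88 and 3.91 in MI hearts on day 7, against 3.08, 3.33 and 3.31 in naive hearts, without overlap. It was 3.08, 3.04 and 4.07 in MI hearts on day 14, against 3.11, 3.38 and 3.54 in naive hearts, and 4.11 and 3.50 in MI hearts on day 28, against 3.61, 3.62 and 2.91 in naive hearts. On both later days the ratios overlapped.

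**Figure D3:**
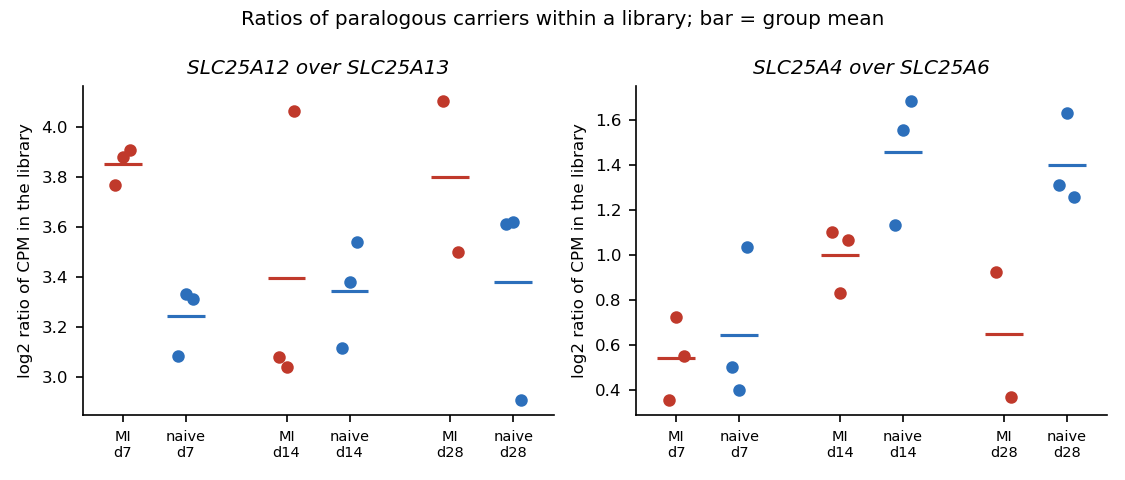
Log2 ratio of CPM within each library (y axis) of SLC25A12 over SLC25A13 and of SLC25A4 over SLC25A6 in MI (red) and naive (blue) hearts by day, 1 point per pig, with a bar at the group mean. The first ratio is apart on day 7 (3.77 to 3.91 in MI hearts, 3.08 to 3.33 in naive hearts) and the second on days 14 and 28.

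SLC25A22 (ENSSSCG00000012844), which carries glutamate together with a proton, moved the other way. It had 7.43, 9.01 and 5.83 CPM in MI hearts on day 7, against 8.38, 5 and 4.90 CPM in naive hearts, and 6.37, 8.80 and 9.30 CPM in MI hearts on day 14, against 7.40, 5.38 and 5.78 CPM in naive hearts. On day 28 it had 9.68 and 11.09 CPM in MI hearts, against 5.55, 4.76 and 5.37 CPM in naive hearts. The groups overlapped on days 7 and 14, and on day 28 both MI hearts were above all naive hearts. SLC25A22 rose on day 28 by 0.99 on the log2 scale (SE 0.26, adjusted p = 0.037 by edgeR) and in the mean over days by 0.56 (SE 0.14, adjusted p = 0.0395). The day 28 call was kept when MI replicate 1 was left out (1.11) and lost when any other of the 5 libraries was, and without the 4 libraries that stand apart the fold change was 0.84 (adjusted p = 0.159). The gene lies on chromosome 2 at 491288 to 498773 on the minus strand.

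Among the carriers of other amino acids, SLC25A15 and SLC25A29 moved in opposite directions on day 28. SLC25A15 (ENSSSCG00000009373; chromosome 11, 15494176 to 15551172, plus strand) exchanges ornithine for citrulline, a step of the urea cycle in liver. It had 9.45, 11.3 and 5 CPM in MI hearts on day 7, against 12.8, 14.0 and 13.4 CPM in naive hearts, and 10.7, 4.28 and 10.1 CPM in MI hearts on day 14, against 6.39, 10.4 and 10.0 CPM in naive hearts. The day 28 levels were 1.63 and 4.74 CPM in MI hearts, against 9.71, 9.67 and 19.5 CPM in naive hearts. The groups were apart on days 7 and 28 and overlapped on day 14. SLC25A15 fell on day 28 by 2.02 on the log2 scale (SE 0.51, adjusted p = 0.0312 by edgeR). The call was kept in 2 of the 5 fits without 1 library (without MI replicate 2 or naive replicate 1) and lost in the other 3, and it was lost with a term for the 4 libraries that stand apart (adjusted p = 0.051). The fold change was -1.43 without MI replicate 1 (adjusted p = 0.14) and -2.97 without MI replicate 2. In the mean over days it was -0.92 (SE 0.26, adjusted p = 0.0511), and without the 4 libraries that stand apart it was called in that mean.

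SLC25A29 (ENSSSCG00000002520; chromosome 7, 121178211 to 121192369, minus strand) carries basic amino acids such as arginine and lysine. It had 16.6, 18.9 and 45.3 CPM in MI hearts on day 7, against 16.0, 6.41 and 11.6 CPM in naive hearts, and 15.7, 25.9 and 30.5 CPM in MI hearts on day 14, against 26.5, 17.2 and 19.3 CPM in naive hearts. On the last day it had 109 and 24.4 CPM in MI hearts, against 14.2, 26.0 and 13.8 CPM in naive hearts. MI replicate 1 of day 28 was the highest of all 21 libraries, while replicate 2 was inside the naive range. SLC25A29 rose on day 28 by 1.89 on the log2 scale (SE 0.55, adjusted p = 0.049 by edgeR) and in the mean over days by 1.11 (SE 0.30, adjusted p = 0.0459). The day 28 value rested on that 1 library: without it the fold change was 0.46 (adjusted p = 0.672), and without MI replicate 2 it was 2.63 (adjusted p = 0.0116). In the mean over days the call held in 4 of the 17 cases in which 1 library was left out, with adjusted p of at most 0.166. SLC25A38, a glycine carrier needed for haem synthesis, was the third of this group and was not called (0.60 on day 28, log2, SE 0.33, adjusted p = 0.255 by edgeR).

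SLC25A23, SLC25A24 and SLC25A25 are calcium-regulated carriers that exchange ATP-Mg for phosphate and so set the adenine nucleotide pool of the matrix. SLC25A23 (ENSSSCG00000013550; chromosome 2, 72625544 to 72643572, plus strand) had 49.5, 43.5 and 43.8 CPM in MI hearts on day 7, against 55.4, 42.8 and 50.8 CPM in naive hearts. It had 41.1, 49.9 and 43.5 CPM in MI hearts on day 14, against 41.5, 53.1 and 54.8 CPM in naive hearts, and 29.6 and 39.5 CPM in MI hearts on day 28, against 43.9, 60.9 and 79.6 CPM in naive hearts. The groups were apart on day 28 alone of the 3 days. SLC25A23 fell there by 0.83 on the log2 scale (SE 0.24, adjusted p = 0.0474 by edgeR), and that call was lost in 4 of the 5 fits without 1 library. Of 6 other settings it held in 1, DESeq2, and the adjusted p of the others was 0.0554 to 0.266. SLC25A24 was not called on day 28 (log2 0.41, SE 0.25, adjusted p = 0.308), with 23.4 and 22.5 CPM in MI hearts against 21.6, 15.6 and 14.6 CPM in naive hearts. SLC25A25 was not called either (log2 0.79, SE 0.47, adjusted p = 0.292).

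SLC25A21 (ENSSSCG00000039317; chromosome 7, 62808126 to 63326634, plus strand) carries oxodicarboxylates such as 2-oxoadipate, which arises when lysine and tryptophan are broken down. It was among the least abundant members, with 1.63, 1.42 and 1.10 CPM in MI hearts on day 7, against 1.97, 3.12 and 3.85 CPM in naive hearts. It had 1.67, 0.772 and 1.29 CPM in MI hearts on day 14, against 1.80, 1.71 and 1.64 CPM in naive hearts, and 0.963 and 1.29 CPM in MI hearts on day 28, against 1.88, 3.00 and 2.86 CPM in naive hearts. MI hearts were below naive hearts without overlap on days 7 and 28, and on day 14 1 MI heart reached into the naive range. It fell in the mean over days by 0.92 on the log2 scale (SE 0.22, adjusted p = 0.0302 by edgeR). That call was kept in 9 of the 17 fits without 1 library and was lost without the 4 libraries that stand apart (adjusted p = 0.0915). By single day it was not called by edgeR: -1.11 on day 7 (SE 0.36, adjusted p = 0.235), -0.47 on day 14 and -1.20 on day 28 (SE 0.41, adjusted p = 0.0814). DESeq2 called it on days 7 and 28. The other carboxylate carriers, SLC25A1 for citrate and SLC25A11 for oxoglutarate and malate, were not called in any comparison, with day 28 log2 fold changes of -0.23 and 0.33.

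SLC25A20, which exchanges acylcarnitine for carnitine in fatty acid oxidation, was not called either, and is described after its values were seen. On day 28 it had 40.6 and 50.3 CPM in MI hearts, against 79.6, 75.3 and 82.9 CPM in naive hearts, without overlap (log2 fold change -0.80, SE 0.28, adjusted p = 0.0879 by edgeR). Its day 7 values, 65.3, 65.8 and 53.4 CPM in MI hearts against 68.0, 76.1 and 67.6 CPM in naive hearts, did not overlap, with a fold change of -0.20.

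SLC25A46 (ENSSSCG00000014197; chromosome 2, 115529662 to 115555441, plus strand) is an atypical member that sits in the outer membrane and takes part in mitochondrial shape and lipid handling. It had 79.7, 85.5 and 70.2 CPM in MI hearts on day 7, against 71.9, 87.0 and 84.5 CPM in naive hearts, and 90.5, 53.0 and 81.0 CPM in MI hearts on day 14, against 55.3, 97.8 and 96.5 CPM in naive hearts. Levels on day 28 were 37.5 and 49.5 CPM in MI hearts, against 89.3, 83.0 and 81.3 CPM in naive hearts. These day 28 MI values were the lowest of all 21 libraries. SLC25A46 fell on day 28 by 0.96 on the log2 scale (SE 0.25, adjusted p = 0.0355 by edgeR). That call was kept in 1 of the 5 fits without 1 library (without MI replicate 2, -1.15), and the fold change without MI replicate 1 was -0.75. Without the 4 libraries that stand apart it was -1.17 (adjusted p = 0.0601).

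**Figure D4:**
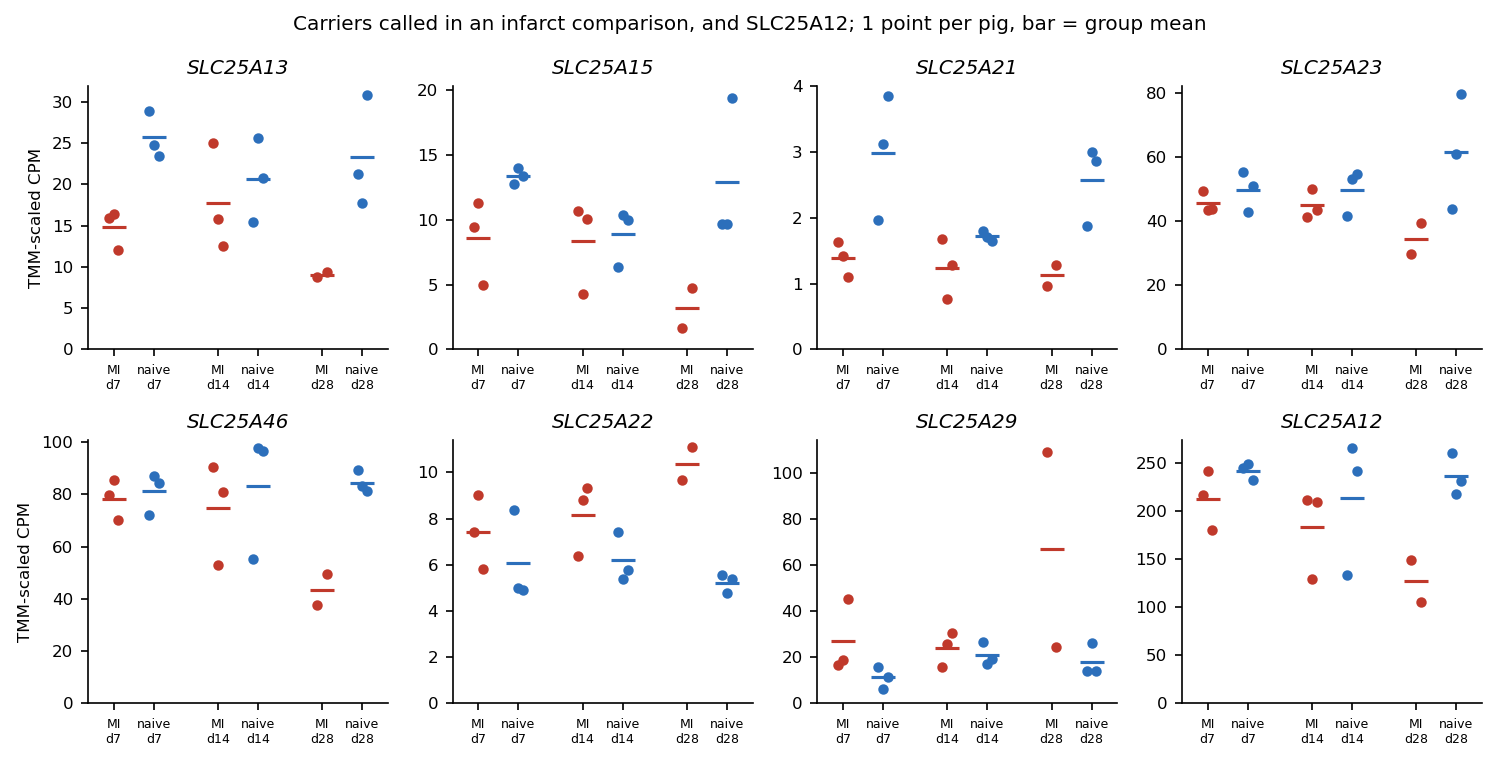
TMM-scaled CPM (y axis) of the 7 members called in an infarct comparison, and of SLC25A12, in MI (red) and naive (blue) hearts by day, 1 point per pig, with a bar at the group mean. SLC25A13 is below naive on days 7 and 28 without overlap, and the high SLC25A29 mean of MI day 28 comes from 1 pig at 109 CPM beside 1 at 24.4 CPM.

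The remaining members did not pass edgeR's test in any comparison. Of the 6 carriers of cofactors and nucleotides, 0 were called on day 28 by edgeR or DESeq2. At an unadjusted p under 0.05 by edgeR there were 0, against 27% of all genes. SLC25A33, a pyrimidine nucleotide carrier named after its values were seen, stood at 0.83 on the log2 scale (SE 0.59, adjusted p = 0.379 by edgeR). SLC25A36, also a pyrimidine nucleotide carrier, had 59.7, 66.4 and 116 CPM in MI hearts on day 7, against 54.1, 58.6 and 62.4 CPM in naive hearts, and was not called (log2 0.47, SE 0.19, adjusted p = 0.342 by edgeR). Of the 3 carriers of iron and glutathione, SLC25A28 (mitoferrin-2, an iron importer) had 28.3, 35.3 and 42.4 CPM in MI hearts on day 7, against 27.7, 21.9 and 27.2 CPM in naive hearts. Those groups did not overlap, and the fold change was 0.47 (log2, SE 0.21, adjusted p = 0.384 by edgeR). On day 14 its estimate was negative and the groups overlapped, with 26.2, 33.7 and 31.6 CPM in MI hearts against 48.0, 30.8 and 39.2 CPM in naive hearts. This was the smallest p of any member on that day (log2 -0.37, SE 0.21, adjusted p = 0.999 by edgeR). SLC25A39, which imports glutathione, had a fold change of -0.69 on day 7 and -0.75 on day 28, without overlap on either day (adjusted p = 0.346 and 0.156 by edgeR). The uncoupling-protein-like carriers SLC25A14 and SLC25A27 had day 28 log2 fold changes of -0.20 and 0.73 (adjusted p = 0.661 and 0.146 by edgeR). DESeq2 called SLC25A27 in the mean over days, where edgeR gave 0.50 (SE 0.17, adjusted p = 0.0948).

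Whether the infarct effect differed between ages was tested as an interaction. For day 28 minus day 7, edgeR called 0 members, where 0.013% of all genes were called, with 3 members and 19% of all genes at an unadjusted p under 0.05. DESeq2 called 0 members and 4.77% of all genes. The smallest p was that of SLC25A46, with a difference of -0.91 in log2 fold change (SE 0.33, adjusted p = 0.168 by edgeR), followed by SLC25A23 with -0.71 (SE 0.32, adjusted p = 0.238). SLC25A15 had -1.38 (SE 0.64, adjusted p = 0.253). For day 14 minus day 7, edgeR called 0 members, against 0.00651% of all genes, with 1 member and 7.07% of all genes at an unadjusted p under 0.05, and DESeq2 called 0 members and 0.18% of all genes. The smallest p was that of SLC25A28 (-0.83, SE 0.30, adjusted p = 0.616 by edgeR), then SLC25A36 (-0.52, SE 0.27, adjusted p = 0.744), which on day 14 had 57.9, 71.1 and 75.5 CPM in MI hearts, against 71.2, 69.7 and 70.7 CPM in naive hearts. The calls on day 28 are therefore not shown to differ from the effects at earlier ages.

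Other genes of the transport route were counted as lists. Of the 11 tested of 12 genes of carrier import (TOMM, TIMM), 0 were called by edgeR in any comparison. On day 28 their median log2 fold change was -0.38. At an unadjusted p under 0.05 by edgeR were 4, against 27% of all genes, and DESeq2 called 0, against 13.8%. The 3 carriers tested of 5 that go under other names (UCP2, UCP3 and MTCH1) were not called on day 28 by edgeR or DESeq2, with a median of 0.24 and 0 at an unadjusted p under 0.05. Of 15 tested of 16 partners of ATP export and other mitochondrial transport, 1 rose and 2 fell on day 28, with a median of -0.45, where 6.86% of all genes were called. At an unadjusted p under 0.05 there were 9, against 27% of all genes. DESeq2 called 6 (VDAC1, SFXN1, SFXN4, CKMT2, CPT1B and PPIF), against 13.8% of all genes. CKMT2, the mitochondrial creatine kinase that uses exported ATP to make phosphocreatine, had 513 and 510 CPM in MI hearts, against 1271, 2164 and 1734 CPM in naive hearts (log2 fold change -1.75, SE 0.44, adjusted p = 0.0312 by edgeR). PPIF, cyclophilin D of the permeability transition pore, had 31.6 and 60.0 CPM in MI hearts, against 143, 136 and 165 CPM in the naive ones (-1.69, SE 0.43, adjusted p = 0.0325). SFXN1, a mitochondrial serine carrier of another family, had 13.3 and 13.5 CPM in MI hearts, against 6.32, 3.24 and 8.14 CPM in the naive ones (1.18, SE 0.33, adjusted p = 0.0443). In the mean over days CKMT2 fell by 1.02 on the log2 scale (SE 0.23, adjusted p = 0.0242), and 0 others of the list were called.

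In naive hearts no carrier passed the test between ages. By edgeR, 0 members and 0% of all genes were called in each of 5 comparisons. At an unadjusted p under 0.05 there were 4 members for day 3 against day 1 (3.54% of all genes), 0 for day 7 against day 1 (5.44%) and 2 for day 14 against day 7 (8.84%). There was 1 for day 28 against day 7 (7.18%) and there were 2 for day 28 against day 1 (5.27%). DESeq2 called 0 members in all 5, and 0% to 0.636% of all genes. The groups did not overlap for 8 members in day 28 against day 1, where 25.1% of all genes did not overlap, and for 9 in day 14 against day 7, where 16.9% did not.

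SLC25A24, an ATP-Mg carrier, gave the smallest unadjusted p of the age comparisons. It had 40.6 and 30.1 CPM on day 1, 24.2 and 19.9 on day 3, 19.1, 32.6 and 30.7 on day 7, 22.8, 23.4 and 15.3 on day 14, and 21.6, 15.6 and 14.6 on day 28. Every day 28 heart was below every day 1 heart, and the difference was -1.03 on the log2 scale (SE 0.25, unadjusted p = 0.000741, adjusted p = 0.867 by edgeR). SLC25A22 had 5.55, 4.76 and 5.37 CPM on day 28, against 8.33 and 7.40 CPM on day 1 (log2 -0.59, SE 0.26, adjusted p = 0.867). Here too the groups did not overlap.

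For day 14 against day 7, SLC25A28 had 48.0, 30.8 and 39.2 CPM on day 14, against 27.7, 21.9 and 27.2 CPM on day 7 (log2 0.62, SE 0.21, adjusted p = 0.408 by edgeR). SLC25A21 had 1.80, 1.71 and 1.64 CPM on day 14, against 1.97, 3.12 and 3.85 CPM on day 7 (log2 -0.80, SE 0.36, adjusted p = 0.542 by edgeR). Both sets of values were apart. For day 3 against day 1, SLC25A34, a carrier whose substrate is not settled, had 105 and 124 CPM on day 3, against 58.5 and 44.6 CPM on day 1 (log2 1.15, SE 0.50, adjusted p = 0.965 by edgeR). SLC25A27 had 7.25, 8.41 and 6.68 CPM on day 7, against 10.9 and 10.0 CPM on day 1 (log2 -0.49, SE 0.31, adjusted p = 0.922 by edgeR). SLC25A43 had 15.0, 11.6 and 11.3 CPM on day 28, against 16.2, 18.2 and 15.2 CPM on day 7 (log2 -0.38, SE 0.21, adjusted p = 0.741 by edgeR).

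**Figure D5:**
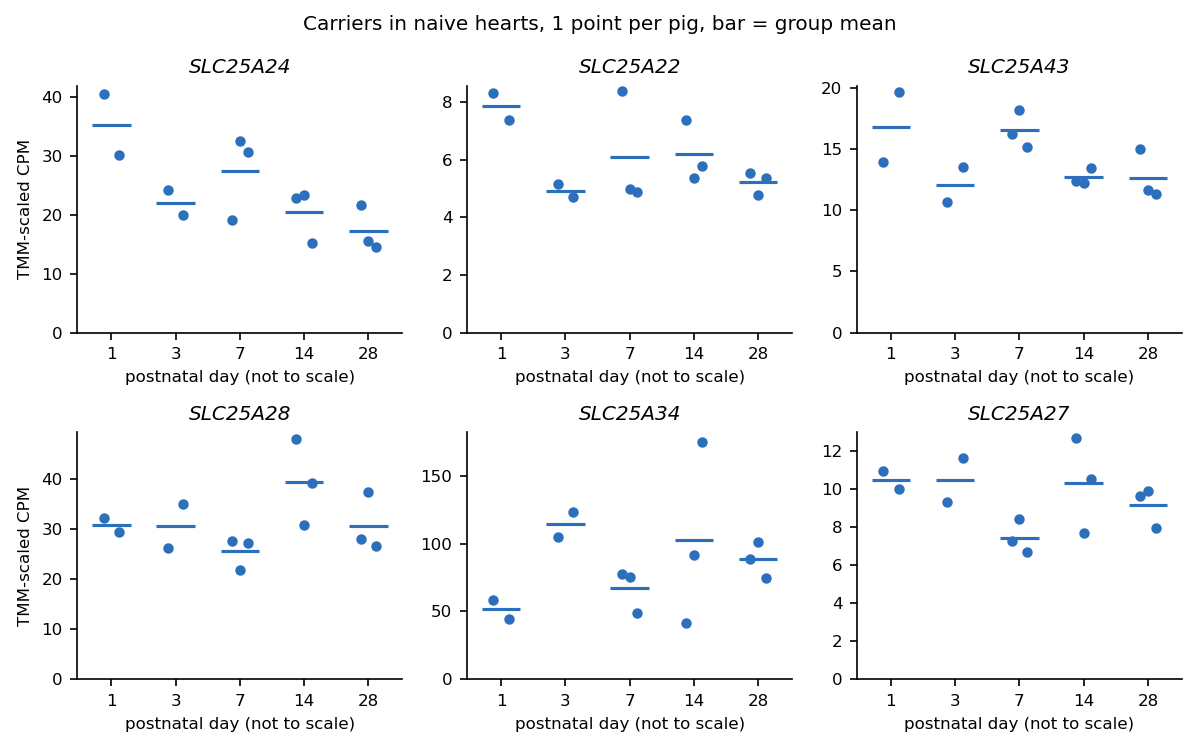
TMM-scaled CPM (y axis) of 6 of the 7 carriers named in the naive age comparisons (SLC25A21 is not drawn), by postnatal day (x axis, not to scale), 1 point per pig, with a bar at the group mean. SLC25A24 is at 40.6 and 30.1 CPM on day 1 and at 14.6 to 21.6 CPM on day 28, and no carrier passes the test.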

How the data were processed

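Total RNA of 21 pig hearts was sequenced, 1 library per pig. The authors deposited raw read counts for 25880 genes. Per the submitters' processing notes, Trim Galore, STAR 2.5.2, HTSeq 0.6.1 and DESeq2 were used with the Sscrofa11.1 build. The sources used here state neither the annotation release nor the strand setting. Reads where genes of opposite strands overlap are therefore ambiguous, and near-identical copies may have lost or shared reads.

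From these counts, filterByExpr of edgeR 4.0.16 kept 15359 genes, and the libraries were scaled with TMM factors (trimmed mean of M values). A quasi-likelihood model (glmQLFit, robust = TRUE) with 1 mean for each of 8 groups was fitted to all 21 libraries (13 residual degrees of freedom, biological coefficient of variation 0.373). The 11 contrasts were tested with two-sided F-tests and Benjamini-Hochberg adjustment over all kept genes. Standard errors (SE) come from the F statistic, and levels are TMM-scaled CPM. Total counts of 37002909 to 95559841 set the counting precision. Over the members, the chi-square per degree of freedom between 2 libraries of a group was 70.0 to 806 (18 pairs). Counting alone gives 1, so spread between libraries was the larger error. With 1 library per pig, pigs and sample handling cannot be told apart in that spread. Whether litters were shared is not given.

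Named with values in each sample of the comparisons concerned are SLC25A3, SLC25A4, SLC25A5 and SLC25A6, every member called in a comparison, and the 2 members with the smallest p of each comparison. The members and lists were chosen with earlier results of these data known. Alternatives were RLE size factors, no filter, DESeq2 1.42.0, a term for or removal of the 4 libraries that stand apart, the compared groups alone, and each library left out in turn. The script was tested on simulated data. R 4.3.3 and matplotlib 3.10.9 were used, and positions and exon lengths are RefSeq's for Sscrofa11.1, matched by symbol for all 32 members. One of the members is not reported here by name or value and is not drawn, but it is included in the counts and medians.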

Additional observations from a re-analysis of the deposited data

How the results depend on the processing

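The day 28 infarct comparison depended most on the settings. Its 6 called members became 3 (1 higher and 2 lower) with a term for the 4 libraries that stand apart and 0 when the compared groups were fitted alone, where 2 genes in all were called. Over the 5 fits without 1 library they numbered 0 (without naive replicate 3) to 4 (without MI replicate 2). The counts were 2 without MI replicate 1 (SLC25A22 and SLC25A27), 3 without naive replicate 1 and 1 without naive replicate 2. RLE size factors gave 5, no filter 4, removal of the 4 libraries 4 and DESeq2 8. Over all genes, 1053 calls on that day became 646 with the term and 2187 with DESeq2. Without 1 library they became 1162 (MI replicate 1), 863 (MI replicate 2), 314 (naive replicate 1), 169 (naive replicate 2) or 17 (naive replicate 3), so the share called of all genes ran from 0.111% to 7.31%. The members' median log2 fold change of -0.19 became -0.39 without MI replicate 1, 0.01 without MI replicate 2 and -0.0008 without the 4 libraries. The day 14 median of -0.11 became -0.02 without MI replicate 2 and -0.01 without naive replicate 1. For day 7, DESeq2 called 1 member and 268 genes, where edgeR called 0 and 0. The 4 members called in the mean over days became 2 with no filter and 2 with the compared groups alone, and 1 to 7 without 1 library: 7 without naive day 14 replicate 1, and 1 without MI day 14 replicate 2, naive day 7 replicate 2 or 3, naive day 14 replicate 2, or naive day 28 replicate 2 or 3. Over all genes, 681 calls there became 458 with no filter, 442 with the compared groups alone, 415 without the 4 libraries and 1609 with DESeq2. They numbered 186 (without naive day 14 replicate 2) to 1082 (without MI day 14 replicate 1) when 1 library was left out. The difference between the day 28 and day 7 effects gained 1 member, SLC25A33, without the 4 libraries, when 367 genes were called where 2 had been, and 0 to 1 without 1 library. There, DESeq2 called 717 genes and the compared groups alone 135. The cause was not tested. For the other comparisons the count of members called stayed at 0 in all these fits. No member called in the main fit changed the sign of its log2 fold change in that comparison. The balance of the day 28 calls did shift, from 2 higher and 4 lower to 0 higher and 3 lower without naive replicate 1. It shifted the other way, toward higher, without MI replicate 1, a fit that left 1 library in that group.

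SLC25A13 was called in the mean over days under all 6 other settings and all 17 omissions, SLC25A21 under 5 settings and 9 omissions, SLC25A22 under 3 and 5, and SLC25A29 under 3 and 4. No paired analysis was possible because the labels carry no replicate numbers shared between groups, only numbers of single pigs. Groups of 2 or 3 pigs limit the precision more than depth does, and a fit that leaves 1 library in a group assumes that it varies like the other groups.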

Other observations

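SLC25A33 had its highest and its lowest level of all 21 libraries in the same group: 16.4 CPM in MI day 28 replicate 1 and 1.76 CPM in MI day 28 replicate 2, against 4.87, 6.24 and 4.17 CPM in naive hearts of day 28. Of the MI libraries of day 28, replicate 1 was the highest of all libraries for 4 of the 32 members and the lowest for 5, and replicate 2 was the highest for 3 and the lowest for 6. Naive day 1 replicate 1 was also the highest for 4, and the share over all genes was not computed.

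SLC25A29 and SLC25A47 are neighbours on chromosome 7 on opposite strands, at 121178211 to 121192369 and 121204213 to 121210376 in RefSeq's annotation of Sscrofa11.1. SLC25A47, described as a liver carrier in humans and mice, was low here. It had 2.53 and 2 CPM in MI hearts on day 28, against 0.921, 0.762 and 1.46 CPM in naive hearts, without overlap (log2 fold change 1.11, SE 0.48, adjusted p = 0.149 by edgeR). On day 14 it had 1.87, 2.56 and 1.5 CPM in MI hearts, against 1.34, 1.36 and 0.989 CPM in naive hearts, again without overlap (0.68, SE 0.44, adjusted p = 0.999). SLC25A5 and SLC25A43 are also neighbours, on chromosome X at 97919295 to 97922245 and 97868804 to 97906771, and neither was called.

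Across the 3 days, 6 members had a positive log2 fold change each time (SLC25A6, SLC25A11, SLC25A22, SLC25A27, SLC25A29 and SLC25A47) and 12 a negative one each time. The 12 include SLC25A3, both aspartate/glutamate carriers, SLC25A15, SLC25A20, SLC25A21, SLC25A23, SLC25A39 and SLC25A46. These are signs of estimates, most of them not called, and the share of all genes with the same sign on each day was not computed.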
